A study of Mus musculus with 12 samples.

Results

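Malat1, Neat1 and Kcnq1ot1 are long RNAs that stay in the cell nucleus and code for no protein. Their 3 rows, of 47359 gene rows in the table, were followed through 12 RNA sequencing libraries of TH17 cells and set beside the share of counts that mitochondrially encoded genes (names starting with mt-) took in each library. The rows were chosen by their counts in these libraries, which differed between the WT subsets, so their differences between groups are given as a description, without a test. The cells were transferred T cells recovered from the central nervous system of RAG2-/- hosts, which lack T and B lymphocytes because they cannot rearrange antigen receptor genes. The hosts were at the height of experimental autoimmune encephalomyelitis (EAE), in which T cells attack myelin. Donor cells were 2D2-IL-17A/F-DKO (DKO, lacking the cytokine genes Il17a and Il17f) or 2D2-WT (WT), and all were labelled 2D2, a transgenic T cell receptor against a myelin protein. Each library came from 1000 living cells sorted as CXCR6+ or SLAMF6+. There was 1 DKO CXCR6+ library, 5 WT CXCR6+ libraries, 1 DKO SLAMF6+ library and 5 WT SLAMF6+ libraries. Ages and the animals behind each library are not stated in the labels, so the p-values below measure only the spread between these samples.

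Malat1 is among the most abundant RNAs of mammalian nuclei and gathers at nuclear speckles, bodies that store splicing factors. Neat1 is the scaffold of paraspeckles, nuclear bodies built on the RNA itself and on RNA-binding proteins such as SFPQ and NONO. Kcnq1ot1 is read from the paternal chromosome, antisense to the potassium channel gene Kcnq1, and silences neighbouring imprinted genes in cis in embryo and placenta. The long Neat1 isoform and Malat1 end in a triple helix of U-rich and A-rich stretches in place of a poly(A) tail made by the usual machinery, and the enzyme RNase P cuts a tRNA-like RNA from their 3′ ends.

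In the GRCm38 build, Malat1 (ENSMUSG00000092341.3, lincRNA) lies on the minus strand at chr19:5795690-5802672 as a single exon of 6983 nt. Neat1 (lincRNA) lies nearby at chr19:5824708-5845478 on the same strand, with a longest annotated transcript of 20771 nt. Kcnq1ot1 (antisense RNA) lies at chr7:143203458-143296549, also on the minus strand, and is 93092 nt long. The stretches below show where a primer of T bases, the usual start of cDNA synthesis in SMART-Seq2, could find A bases. They are written 5′ to 3′ from the GENCODE M21 transcripts. Capitals mark the longest A stretch of Malat1 and of Kcnq1ot1 and the A stretches at the end of Neat1. The places are chr19:5795928-5796083 for Malat1, chr19:5824708-5824797 for the end of Neat1 and chr7:143226915-143227015 for Kcnq1ot1.
Malat1: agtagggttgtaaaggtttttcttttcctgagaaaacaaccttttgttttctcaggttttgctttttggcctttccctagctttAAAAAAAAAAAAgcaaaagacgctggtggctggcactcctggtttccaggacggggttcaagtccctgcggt
Neat1: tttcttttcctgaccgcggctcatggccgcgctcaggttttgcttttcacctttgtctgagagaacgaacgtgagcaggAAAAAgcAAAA
Kcnq1ot1: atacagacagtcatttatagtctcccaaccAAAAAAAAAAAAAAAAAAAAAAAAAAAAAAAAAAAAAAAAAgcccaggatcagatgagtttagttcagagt

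The Malat1 and Neat1 stretches share 2 runs of at least 12 letters. The first, tttcttttcctga, occurs in the transcripts of 15 of 19552 tested genes (0.0767%), and the second, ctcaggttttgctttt, in those of 2, Malat1 and Neat1. In Malat1 the capitals are followed by gcaaaa and then by the tRNA-like RNA, and the run of 12 A lies 298 bases before the annotated end. Malat1 held this 1 run of at least 10 A, Neat1 held none (its longest had 7) and Kcnq1ot1 held 10, the longest of 41 A. Of 1689 tested genes with a transcript of at least 6000 nt, 680 (40.3%) held such a run, so a run is common in long RNAs. Whether priming inside these RNAs differed between libraries was not tested.

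The libraries held 6818658 to 11635037 counts. Il17a stood at 0 and 3 counts in the DKO CXCR6+ and DKO SLAMF6+ libraries, against 1622 to 4751 in the 10 WT libraries. Both DKO libraries stood apart from their labels or from WT in more than the deleted genes. Trbv16, the β-chain segment of the 2D2 receptor, made up 9.96% and 6.51% of Trbv counts in the DKO CXCR6+ and DKO SLAMF6+ libraries, against 99.61 to 99.81% in WT. They also held 314 and 249 counts of the Y-linked gene Ddx3y, against 0 in WT, and haemoglobin genes took 11.9% of counts in the DKO SLAMF6+ library. Summed T cell markers (12 genes) reached 8214 CPM in DKO CXCR6+, 22730 to 34600 CPM in WT CXCR6+, 9339 CPM in DKO SLAMF6+ and 33490 to 40100 CPM in WT SLAMF6+. For WT, most of that sum was Trbc2, a receptor constant gene, with a CXCR6+ mean of 23250 CPM and a SLAMF6+ mean of 30020 CPM. Trbc2 was far lower in the DKO libraries and made up only a minor part of their sums. The DKO CXCR6+ library held 1797 CPM of it, the DKO SLAMF6+ library 2026 CPM. Most of the 12 markers ran the other way: 8 lay above and 3 below the WT CXCR6+ range in the DKO CXCR6+ library, and 9 above and 3 below the WT SLAMF6+ range in the DKO SLAMF6+ library. Summed myeloid markers (18 genes) reached 1708, 31.5 to 58.5, 774.4 and 74.7 to 96.6 CPM in the same order of groups, with 6, 3, 2 and 4 of the 18 at 0 in all libraries of the group. Ly6c2 (659.1 CPM), S100a8 (497.6 CPM) and S100a9 (426.4 CPM) made up most of the DKO CXCR6+ sum. In DKO SLAMF6+, Ly6c2 (363.6 CPM) and Tyrobp (170.6 CPM) made up most of it. Of 17 tested, 9 lay above and 3 below the WT CXCR6+ range in the DKO CXCR6+ library. In the DKO SLAMF6+ library, 13 lay above and 3 below the WT SLAMF6+ range. The part of these differences in the values below was not tested.

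Malat1 was the most abundant of the 3 RNAs in every library and parted the WT subsets without overlap. Levels are CPM, counts scaled to 1e+06 per library after TMM scaling of the totals. The 5 WT CXCR6+ libraries held 7304, 8439, 9757, 10030 and 10280 CPM of Malat1, and the 5 WT SLAMF6+ libraries held 2371, 2938, 2089, 2234 and 2660 CPM, in the order of their replicate numbers. The means were 9162 ± 1258 (WT CXCR6+) and 2458 ± 341 CPM (WT SLAMF6+; SD, n = 5 each), a log2 difference of 1.90 (3.73-fold). Every WT CXCR6+ library stood above every WT SLAMF6+ library, as was so for 12.8% of the 21565 tested genes, with another 15% separated the other way. The filter on low counts kept a gene with enough counts in 1 library, a DKO library included. With only the WT libraries in the fit, 13508 of these genes were kept. By counts, Malat1 ranked 8 to 10 among all genes in WT CXCR6+ and 60 to 96 in WT SLAMF6+. Of 5461 genes with a mean of at least 20 CPM over the 12 libraries, 42 (0.769%) had a larger positive log2 difference than Malat1.

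The DKO libraries did not repeat the order of the WT subsets for Malat1. DKO CXCR6+ held 6550 CPM, below all 5 WT CXCR6+ libraries (log2 ratio to their mean -0.48). DKO SLAMF6+ held 7125 CPM, above all 5 WT SLAMF6+ libraries (log2 ratio 1.54). A DKO CXCR6+ value lay below the WT range in 28.1% of tested genes and above it in 29.6%. A DKO SLAMF6+ value lay above the range in 35.1% and below it in 30.9%, so a place outside the WT range is common in these single libraries. The genes include some kept for their counts in a DKO library alone, such as S100a8, at 0 CPM in every WT library. The shares above the range are therefore raised in part by the filter. Between the DKO libraries, CXCR6+ over SLAMF6+ gave a log2 ratio of -0.12 in CPM and 0.16 as a share of all counts, 0.663% in DKO CXCR6+ and 0.594% in DKO SLAMF6+, so its direction depended on the scale. In level, the order was WT CXCR6+, DKO SLAMF6+, DKO CXCR6+ and WT SLAMF6+. The values of the DKO libraries lay closer together than the SD of the WT CXCR6+ libraries (1258 CPM), but further apart than that of the WT SLAMF6+ libraries (341 CPM).

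Neat1 stood at far lower levels, with the same separation of the WT subsets. It held 220.4, 243.5, 168.5, 206.0 and 201.2 CPM in the WT CXCR6+ libraries and 99, 88.7, 103.5, 86.3 and 93.2 CPM in the WT SLAMF6+ libraries. The means were 207.9 ± 27.5 and 94.2 ± 7.13 CPM (WT CXCR6+ and WT SLAMF6+, SD, n = 5 each), a log2 difference of 1.14 (2.21-fold), without overlap. Of the 5461 genes of at least 20 CPM, 225 (4.12%) had a larger one. DKO CXCR6+ held 195.6 CPM, within the WT CXCR6+ range (log2 ratio -0.09). DKO SLAMF6+ held 140.8 CPM, above the 5 WT SLAMF6+ libraries and below the WT CXCR6+ ones (log2 ratio 0.58). The levels thus ran from WT CXCR6+ and DKO CXCR6+, which overlapped, through DKO SLAMF6+ to WT SLAMF6+. Between the DKO libraries, CXCR6+ stood above SLAMF6+ by 0.47 on the log2 scale.

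Kcnq1ot1 was near the limit of what these libraries can count. It had 22 counts in DKO CXCR6+, 24, 28, 26, 36 and 31 counts in the WT CXCR6+ libraries, 16 counts in DKO SLAMF6+ and 10, 20, 12, 20 and 12 counts in the WT SLAMF6+ libraries. In CPM the WT values were 2.90, 3.07, 2.97, 3.59 and 3.46 in WT CXCR6+ and 0.958, 2.81, 1.17, 1.95 and 1.19 in WT SLAMF6+. The lowest WT CXCR6+ library and WT SLAMF6+ replicate 2 differed by less than counting error alone allows: the 95% exact Poisson intervals were 1.86 to 4.31 CPM for WT CXCR6+ replicate 1 and 1.72 to 4.34 CPM for WT SLAMF6+ replicate 2. The intervals cover counting error only. The means were 3.20 ± 0.307 (WT CXCR6+) and 1.61 ± 0.765 CPM (WT SLAMF6+; SD, n = 5 each), a log2 difference of 0.99. Without WT SLAMF6+ replicate 2 it was 1.27. DKO CXCR6+ held 2.54 CPM (95% interval 1.59 to 3.85), below the WT CXCR6+ range, and DKO SLAMF6+ held 2.32 CPM (1.32 to 3.76), within the WT SLAMF6+ range. A difference between the DKO libraries, or between either of them and WT, was not detectable at this depth.

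Levels of different genes compare only per length. Scaled by the longest transcript, Malat1 had 938 RPKM in DKO CXCR6+, 1046 to 1471 in WT CXCR6+, 1020 in DKO SLAMF6+ and 299 to 421 in WT SLAMF6+. Neat1 had 9.42, 8.11 to 11.7, 6.78 and 4.16 to 4.99 RPKM in the same order of groups. Kcnq1ot1 had 0.0273, 0.0311 to 0.0385, 0.0249 and 0.0103 to 0.0302 RPKM. The order of the 3 RNAs was the same in all 12 libraries. Most Neat1 in many cell types is a short isoform, so dividing by the longest transcript sets a low value for it.

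**Figure D1:**
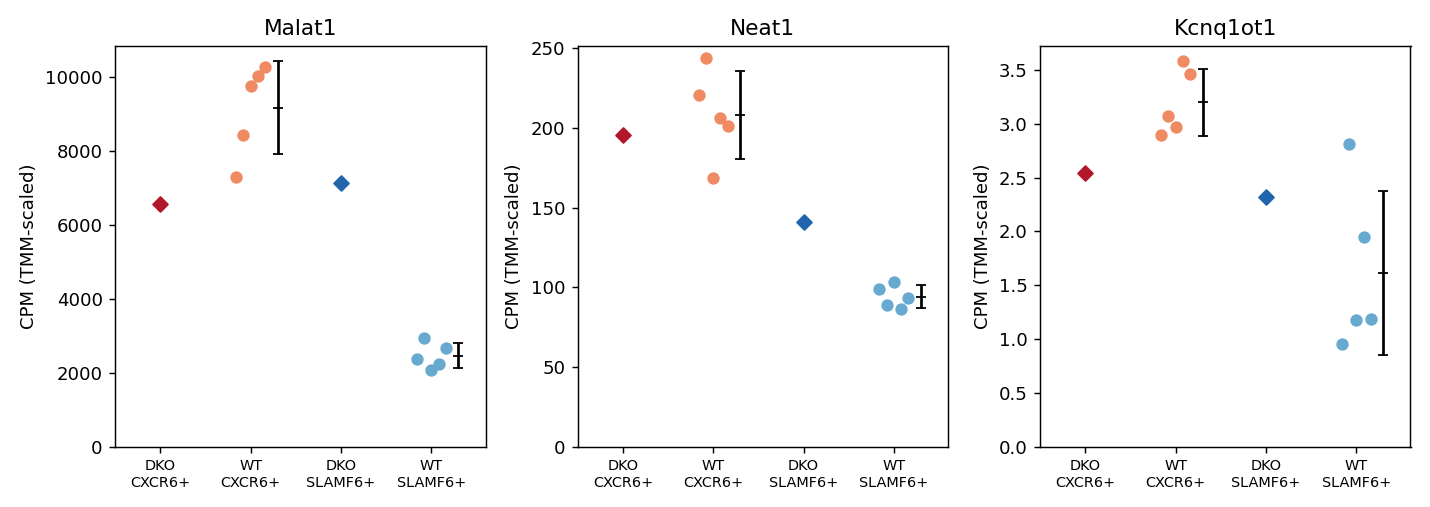
Levels of Malat1, Neat1 and Kcnq1ot1 (CPM, TMM-scaled, each panel from 0) in the 12 libraries, 1 point per library, by group from DKO CXCR6+ on the left to WT SLAMF6+ on the right. Black bars give the mean and SD of the 5 WT libraries. In each panel all WT CXCR6+ points lie above all WT SLAMF6+ points, and for Malat1 both DKO points (6550 and 7125 CPM) lie between the WT groups.

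Mitochondrial counts followed the same division. The mt- genes took 7.45% of counts in DKO CXCR6+ and 12.9, 15.5, 17.6, 14.2 and 17.3% in WT CXCR6+ (replicates 1 to 5). They took 8.56% in DKO SLAMF6+ and 2.68, 5.24, 2.20, 2.43 and 3.38% in WT SLAMF6+. Both DKO libraries thus lay between the WT subsets in this share, as they did for Malat1. Ribosomal protein genes ran the other way, with 15.9% in DKO CXCR6+, 9.31 to 10.7% in WT CXCR6+, 14.9% in DKO SLAMF6+ and 18.5 to 19.8% in WT SLAMF6+.

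Counted against mitochondrial counts, Malat1 did not part the WT subsets. There were 6.90, 6.38, 6.24, 8.15 and 6.80 Malat1 counts per 100 mt- counts in WT CXCR6+, and 7.99, 4.91, 8.50, 8.14 and 6.90 in WT SLAMF6+, which overlapped (means 6.90 and 7.29). The ratio was 8.89 in DKO CXCR6+ and 6.94 in DKO SLAMF6+. For Neat1 the WT ranges overlapped too, at 0.108 to 0.208 counts per 100 mt- counts in WT CXCR6+ and 0.148 to 0.421 in WT SLAMF6+. Its means lay further apart, at 0.160 in WT CXCR6+ and 0.292 in WT SLAMF6+. The DKO libraries had 0.266 (CXCR6+) and 0.137 (SLAMF6+) Neat1 counts per 100 mt- counts. Per 100 Malat1 counts, Neat1 had 1.73 to 3.02 in WT CXCR6+ and 3.02 to 4.96 in WT SLAMF6+, with means of 2.33 and 3.9 and no overlap, though the nearest libraries met at 3.02. The DKO libraries had 2.99 (CXCR6+) and 1.98 (SLAMF6+) Neat1 counts per 100 Malat1 counts. The differences of the 3 RNAs were therefore of unequal size, largest for Malat1 in the WT comparison.

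Leaving mt- genes out of the total did not remove the separation. As a share of the remaining counts, Malat1 took 1.26% in WT CXCR6+ and 0.225% in WT SLAMF6+ on average, a 5.59-fold ratio. The same ratio was 3.32 for Neat1 and 2.97 for Kcnq1ot1. On this scale Neat1 in DKO CXCR6+, at 0.0214%, lay below the 5 WT CXCR6+ libraries (0.0230 to 0.0338%), while its CPM lay within their range.

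Within a subset the orders of libraries matched only in part. In WT SLAMF6+, the order of the 5 libraries was the same for Malat1 CPM and the mt- share, with replicate 2 highest, then 5, 1, 4 and 3. In WT CXCR6+, replicate 1 was lowest in both, but Malat1 was highest in replicate 5 and the mt- share in replicate 3. Neat1 had another order: in WT SLAMF6+ replicate 3, the lowest in Malat1, was the highest in Neat1, and in WT CXCR6+ replicate 3 was the lowest in Neat1. With 5 libraries a subset and 2 separated subsets, no correlation across libraries is given.

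**Figure D2:**
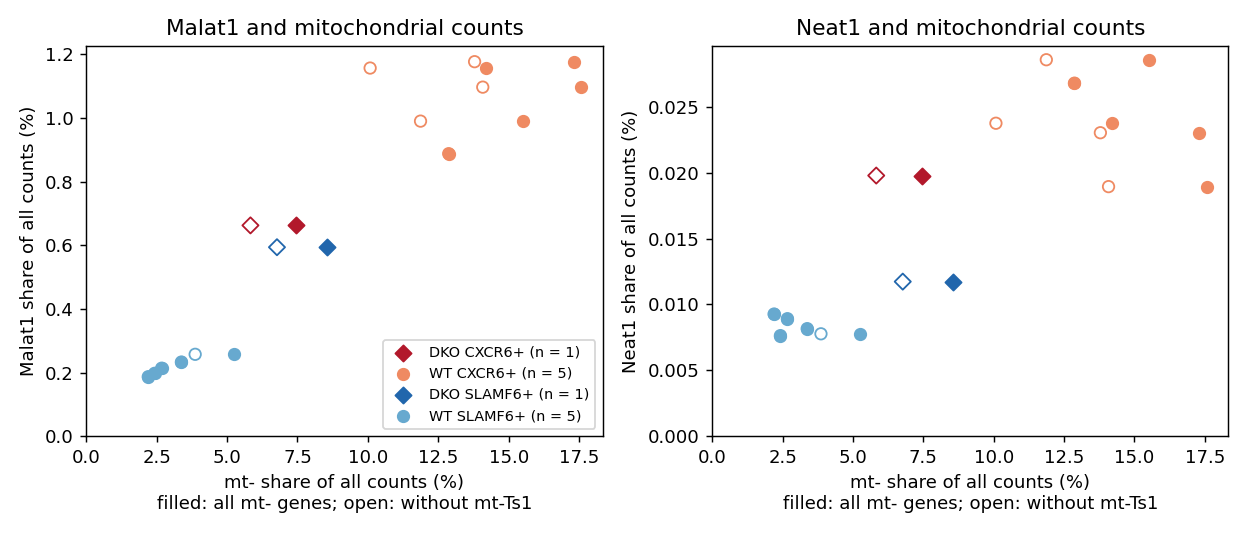
Share of all counts (%) of Malat1, left, and Neat1, right, against the mt- share of all counts (%), 1 library per point, with all mt- genes (filled) and without mt-Ts1 (open). WT CXCR6+ libraries lie at the upper right and WT SLAMF6+ libraries at the lower left. Both DKO libraries lie between them for Malat1; for Neat1 the DKO CXCR6+ library (0.0198%) lies within the WT CXCR6+ range of shares.

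A single gene weighed on the mitochondrial share. A tRNA gene, mt-Ts1, had no counts (0) in replicate 1 of WT CXCR6+ or in replicates 1, 3, 4 and 5 of WT SLAMF6+, and took 19.9 to 29.0% of mt- counts in the other WT libraries, 21.7% in DKO CXCR6+ and 20.9% in DKO SLAMF6+. Without it the mt- share was 5.83% in DKO CXCR6+, 10.1 to 14.1% in WT CXCR6+, 6.77% in DKO SLAMF6+ and 2.20 to 3.87% in WT SLAMF6+. Malat1 counts per 100 of these mt- counts were 11.4 in DKO CXCR6+, 6.90 to 11.5 in WT CXCR6+, 8.77 in DKO SLAMF6+ and 6.65 to 8.50 in WT SLAMF6+, and the WT subsets again overlapped. The order of the WT SLAMF6+ libraries stayed as it was, while in WT CXCR6+ replicate 1 was no longer lowest in the mt- share. Among WT libraries with mt-Ts1 at 0 there was 1 of CXCR6+, and among the others 1 of SLAMF6+, too few to compare the subsets within either.

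Reads of Malat1 could not be fully told from those of another row. Gm37376, annotated as TEC (a transcript awaiting experimental proof), lies at chr19:5801941-5802393 on the plus strand, inside Malat1, and covers 6.49% of its length. The libraries do not mark strand. Gm37376 held 1333 CPM in DKO CXCR6+, 794 to 1939 CPM in WT CXCR6+, 1562 CPM in DKO SLAMF6+ and 387 to 553 CPM in WT SLAMF6+, which is 16.9, 8.45 to 16.2, 18.0 and 14.0 to 18.4% of the sum of both rows. Per base its counts were 3.14 times those of Malat1 in DKO CXCR6+, 1.42 to 2.98 times in WT CXCR6+, 3.38 times in DKO SLAMF6+ and 2.52 to 3.47 times in WT SLAMF6+. With both rows added, a choice made after seeing the data, the WT log2 difference was 1.82, the DKO CXCR6+ ratio to WT CXCR6+ -0.39 and the DKO SLAMF6+ ratio to WT SLAMF6+ 1.57. Kcnq1 spans Kcnq1ot1 on the opposite strand and was at 0 counts in all 12 libraries.

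Long transcripts as a whole had larger log2 differences, WT CXCR6+ minus WT SLAMF6+, than short ones. Over 5289 genes of at least 20 CPM with an annotated length, the median log2 difference was -0.88 below 1000 nt, -0.57 from 1000 to 2000 nt, -0.33 from 2000 to 4000 nt, -0.08 from 4000 to 7000 nt and 0.42 from 7000 nt on. Spearman's rho between length and log2 difference was 0.41 across these genes, which are not independent replicates. Of 305 genes of at least 7000 nt, 0 had a larger log2 difference than Malat1 (6983 nt), 38 (12.5%) a larger one than Neat1 and 67 (22.0%) a larger one than Kcnq1ot1. Malat1 itself falls in the class of 4000 to 7000 nt, where such genes were not counted. Over all lengths, 42 of 5461 genes of at least 20 CPM had a larger one than Malat1. With offsets for transcript length in each library, the log2 differences were 1.68 for Malat1, 0.62 for Neat1 and 0.48 for Kcnq1ot1, so those of Neat1 and Kcnq1ot1 shrank by more than 1.5 times.

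**Figure D3:**
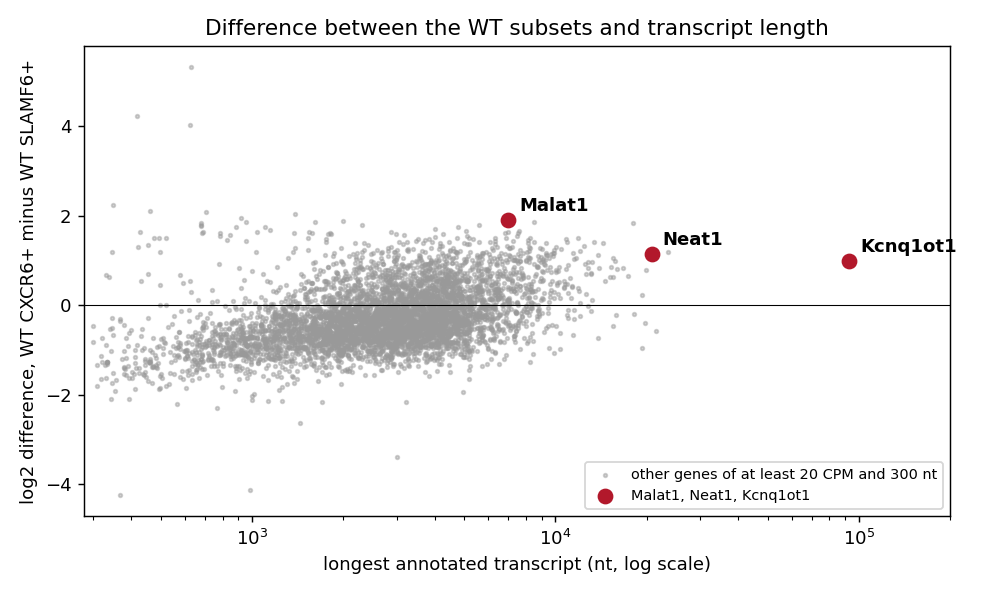
Log2 difference of each gene of at least 20 CPM and 300 nt, WT CXCR6+ minus WT SLAMF6+, against the length of its longest annotated transcript (nt, log scale), with the 3 RNAs in red. Longer transcripts lie higher; Malat1 (1.90) lies at the upper edge of genes of its length, Neat1 (1.14) lies within the spread of long genes, and Kcnq1ot1 (0.99), shown though under 20 CPM, is longer than any of them.

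Of other RNAs known to stay in the nucleus, many were higher in WT CXCR6+. The lists that follow, like the members, were chosen with earlier results known, so their counts describe and test nothing as lists. In the test of all 21565 genes (edgeR's quasi-likelihood test, Benjamini-Hochberg adjusted p under 0.05), 33.3% were called between WT CXCR6+ and WT SLAMF6+, 15.6% higher and 17.7% lower, with a median log2 difference of 0.13. Calls were more frequent at higher levels: of the 5289 genes of at least 20 CPM with an annotated length, 18.3% were higher and 51.8% lower. With the length offsets 4350 genes were higher and 2341 lower, in place of 3363 and 3816. A filter of 10 CPM in 5 libraries gave 2843 and 2463, and only the WT libraries in the fit gave 3986 and 3379. Higher genes made up 65, 53.6 and 54.1% of the calls in these settings, against 46.8% in the main run. Over genes shared with the main run, the median shift in log2 difference was 0.23, 0.26 and 0.13. Of the 21565 genes, 13508 were shared with the fit of only the WT libraries. The main filter also kept genes with enough counts in 1 library only. The 15.6 and 17.7% are therefore lower than the shares called in that fit. Of 25 other nuclear lncRNAs, 20 passed the filter on low counts, and of these 11 were higher and 0 lower (12 and 0 at an unadjusted p, 12 and 0 by DESeq2), with a median of 0.90. Their summed level was 540 CPM in DKO CXCR6+, 709.5 to 785.4 CPM in WT CXCR6+, 525 CPM in DKO SLAMF6+ and 304 to 393 CPM in WT SLAMF6+. These sums include Xist, with a WT CXCR6+ mean of 183.4 CPM and a WT SLAMF6+ mean of 51.6 CPM. Both DKO libraries held 0 counts of Xist and, unlike WT, held counts of the Y-linked gene Ddx3y. The lower DKO CXCR6+ sum therefore rests in part on Xist, and a sum without this gene was not made.

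Xist, which coats the inactive X chromosome, was at 0 counts in both DKO libraries and averaged 183.4 ± 24.5 CPM over the WT CXCR6+ libraries and 51.6 ± 7.35 CPM over those of WT SLAMF6+ (SD, n = 5 each; log2 1.83, edgeR adjusted p 1.45e-06). Mir155hg, the host RNA of a microRNA induced in activated lymphocytes, stood at 6.24 (DKO CXCR6+) and 6.52 CPM (DKO SLAMF6+), below every WT library. It averaged 155.5 ± 25.8 (WT CXCR6+) and 67.9 ± 3.20 CPM (WT SLAMF6+), with a WT log2 difference of 1.20 (edgeR adjusted p 1.09e-05). Mir142hg, the host of a microRNA of blood cells, stood at 263.8 (DKO CXCR6+) and 299.5 CPM (DKO SLAMF6+), and averaged 189.7 ± 17.9 (WT CXCR6+) and 85.6 ± 6.92 CPM (WT SLAMF6+), a WT log2 difference of 1.15 (edgeR adjusted p 1.89e-06). Firre, an X-linked RNA of nuclear architecture, was higher in WT CXCR6+ too (log2 0.96, edgeR adjusted p 0.000103). In the DKO libraries the list lay on both sides of WT: of the 20, 7 lay above and 8 below the WT CXCR6+ range in the DKO CXCR6+ library, and 10 above and 5 below the WT SLAMF6+ range in the DKO SLAMF6+ library.

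Exported lncRNAs and host RNAs of small nucleolar RNAs were called in both directions. Of 15 tested, 5 were higher and 8 lower in WT CXCR6+ (median log2 -0.31), but 7 were higher and 3 lower with the length offsets. Zfas1 averaged 316.7 ± 36.7 (WT CXCR6+) and 603.4 ± 27.0 CPM (WT SLAMF6+; log2 -0.93, edgeR adjusted p 8.13e-06), and Snhg6 was lower too (log2 -0.69). Snhg20 (log2 1.13) and Snhg17 (0.96) were among the higher. Snhg6 lost its direction with the length offsets (0.17).

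By annotated class, a count added after seeing the data, TEC genes were the ones most often higher of the 4 classes given here. Of 956 tested TEC genes other than Gm37376, 42.7% were higher and 0.105% lower, with a median log2 difference of 1.60. Of 970 antisense genes, 19.1% were higher and 0.928% lower, and of 675 lincRNAs other than the members, 11.9% and 2.52%. Protein-coding genes were 17.4% higher and 26.5% lower. At a mean of at least 20 CPM, where filtering on low counts matters less, 13 of 13 TEC genes, 18 of 27 lincRNAs and 5 of 14 antisense genes were higher, and 0, 5 and 2 of them were lower. The median log2 difference of the 14 antisense genes was 0.15, against 1.08 over all 970. Of 4951 protein-coding genes at this level, 18.1% were higher and 52.0% lower. Without strand, reads of such genes cannot be told apart from those of an overlapping gene on the other strand.

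Genes for speckle proteins were higher more often than lower, and those for paraspeckle proteins were split; the difference between these lists was not tested. Of 32 tested nuclear speckle proteins, 19 were higher and 3 lower (median log2 0.48). Son, a core protein of speckles, stood at 130.5 (DKO CXCR6+) and 106.9 CPM (DKO SLAMF6+), and averaged 119.9 ± 8.66 (WT CXCR6+) and 56.2 ± 2.22 CPM (WT SLAMF6+), a WT log2 difference of 1.09 (edgeR adjusted p 7.46e-07). Srrm2, the other scaffold protein of speckles, had a log2 difference of 1.27, the splicing factor Srsf1 1.48 and Rbm25 0.69. Of 27 paraspeckle proteins, 10 were higher and 9 lower (median 0.13), or 14 and 6 with a filter of 10 CPM in 5 libraries. The core partners of Neat1 split: Sfpq averaged 61.6 ± 13.5 (WT CXCR6+) and 22.8 ± 1.39 CPM (WT SLAMF6+; log2 1.43, edgeR adjusted p 2.28e-05), and Nono averaged 174.0 ± 6.91 and 258.7 ± 16.2 CPM in the same groups (log2 -0.57, adjusted p 2.12e-05). Hnrnpa1 (-0.94) and Nudt21 (-1.17), a subunit of the 3′ end cleavage factor, were lower as well. Several of these genes, Son and Srrm2 among them, have long transcripts, the class described above.

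Messenger RNAs known to be held in the nucleus with an unspliced intron were higher more often than lower. Of 22 tested, 16 were higher and 3 lower (median log2 0.57). Ccnl2, a cyclin of transcription and splicing, averaged 260.4 ± 39.3 (WT CXCR6+) and 105.0 ± 9.09 CPM (WT SLAMF6+; log2 1.31, edgeR adjusted p 4.98e-06). Pabpn1, the nuclear poly(A)-binding protein gene, had a log2 difference of 1.59, Nktr 1.08 and Pnisr 0.95. The counts are per gene, so spliced and unspliced forms are not separated.

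Factors that process or degrade nuclear RNA were mixed. Of 21 tested, 3 were higher and 6 lower (median -0.09), but 8 were higher and 3 lower with the length offsets, and 9 and 4 with the filter of 10 CPM. Zfc3h1, which links the nuclear exosome to polyadenylated RNA, averaged 60.5 ± 9.33 (WT CXCR6+) and 19.5 ± 1.84 CPM (WT SLAMF6+; log2 1.64, edgeR adjusted p 2.28e-06), and Srrt, a partner of the cap-binding complex, had a log2 difference of 0.81. Exosc3, a subunit of that exosome, was lower (-0.64), as was the nuclear exonuclease Xrn2 (-0.55). Exosc3 lost its direction with the length offsets (0.19).

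**Figure D4:**
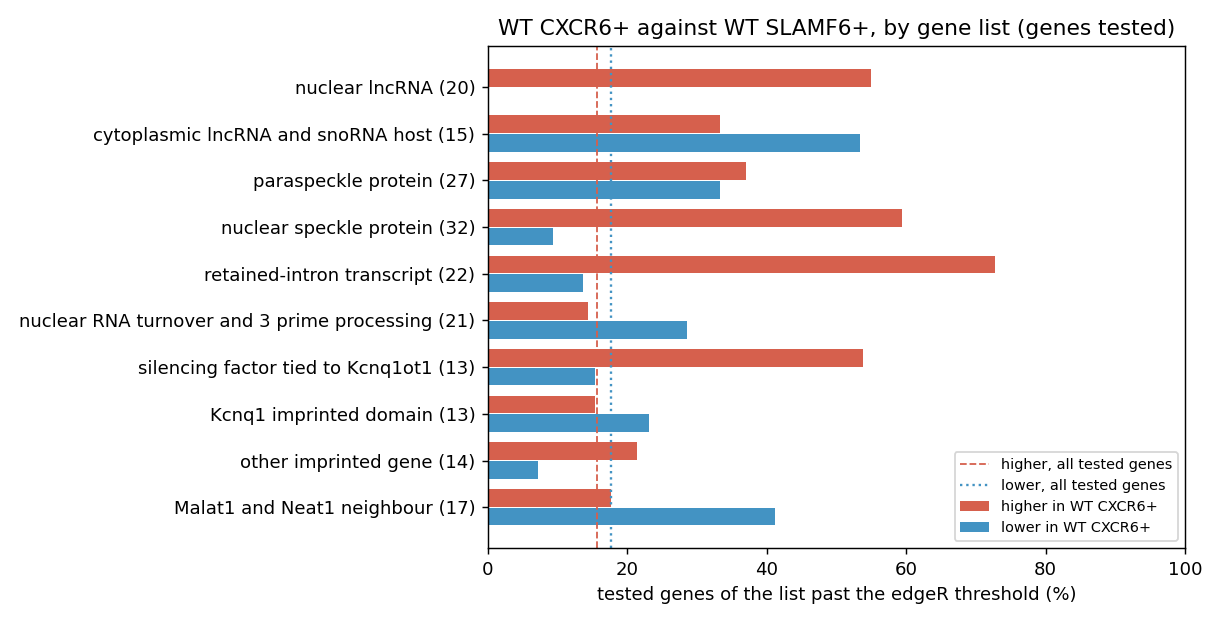
Share of tested genes of each list (%) called higher (red) or lower (blue) between WT CXCR6+ and WT SLAMF6+ at an edgeR adjusted p under 0.05, with the number tested in brackets. The dashed and dotted lines give the shares over all 21565 genes, 15.6% higher and 17.7% lower. Over 5289 genes of at least 20 CPM, not drawn, the shares were 18.3% higher and 51.8% lower. Nuclear lncRNAs, speckle proteins and retained-intron transcripts have most of their calls in the higher direction.

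Several genes silenced by Kcnq1ot1 in other tissues were near or at 0 in these cells. Of 20 genes listed for its imprinted domain, 6 fell below the filter, among them Kcnq1 at 0 counts and Cdkn1c, a cell cycle inhibitor and a main imprinted gene of the domain, with at most 8 counts in a library. Of 13 tested, 2 were higher and 3 lower in WT CXCR6+ (median log2 -0.33). Nap1l4, a histone chaperone gene, averaged 98.6 ± 5.79 (WT CXCR6+) and 136.3 ± 6.90 CPM (WT SLAMF6+; log2 -0.47, edgeR adjusted p 0.000111). The receptor genes Tnfrsf22 (-0.67) and Tnfrsf26 (-1.36) were lower, and Cars, which encodes a tRNA synthetase, was higher (0.45).

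Of 13 silencing factors known to work with Kcnq1ot1 or with imprinted domains, 7 were higher and 2 lower (median log2 0.51). Ezh2 (0.67) and Suz12 (0.99), subunits of the Polycomb complex that methylates histone H3, and the RNA tether Hnrnpu (0.99) were higher, and Rnf2, the ligase of the other Polycomb complex, was lower (-0.72). In the DKO libraries Ezh2 stood at 23.2 CPM (CXCR6+) and 29.1 CPM (SLAMF6+), against 87.3 ± 9.25 (WT CXCR6+) and 55.1 ± 2.91 CPM (WT SLAMF6+). Of 14 other imprinted genes tested, 3 were higher and 1 lower (median 0.35), among them Gnas, a G protein subunit (0.53), and Commd1 (-0.63). The weakest of these calls, Igf2r (log2 0.59, edgeR adjusted p 0.0165) and Inpp5f (0.46, adjusted p 0.0332), were lost without a filter on low counts (adjusted p 0.0696 and 0.104). Igf2r was also lost with the length offsets (adjusted p 0.347). Inpp5f was lost without WT CXCR6+ replicate 2, 3 or 5 or WT SLAMF6+ replicate 2, 3 or 4 as well (adjusted p 0.0598 to 0.0696).

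The neighbours of Malat1 and Neat1 on chromosome 19 were called in both directions, with a balance that depended on the scaling. Of 17 tested, 3 were higher and 7 lower in WT CXCR6+ (median log2 -0.16), but 7 were higher and 3 lower with the length offsets, and 8 and 4 with a filter of 10 CPM in 5 libraries. Frmd8 averaged 58.6 ± 6.94 (WT CXCR6+) and 105.4 ± 6.0 CPM (WT SLAMF6+; log2 -0.85, edgeR adjusted p 2.28e-05), and Fam89b was lower as well (-0.88). Fam89b was no longer called with the length offsets (adjusted p 0.525). Pcnx3 (1.42) and Ltbp3, which encodes a TGF-β binding protein (1.48), were higher. Ltbp3 was nearly absent in both DKO libraries (0.116 CPM in CXCR6+ and 0.869 CPM in SLAMF6+), against 27.4 ± 6.27 (WT CXCR6+) and 9.86 ± 1.66 CPM (WT SLAMF6+).

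In mouse T helper cells Malat1 has been tied to Maf and Il10, a transcription factor gene and the cytokine gene it drives. Maf stood at 19 (DKO CXCR6+) and 18.5 CPM (DKO SLAMF6+), and averaged 7.77 ± 2.72 CPM in WT CXCR6+ and 6.66 ± 1.45 CPM in the WT SLAMF6+ libraries (SD, n = 5 each). The WT difference did not pass edgeR's test (log2 0.22, adjusted p 0.504). Il10 averaged under 1 CPM in all 4 groups and did not pass (edgeR adjusted p 0.245). At an unadjusted p and by DESeq2, 0 of the 2 genes were called as well. A p that misses the threshold does not show that the subsets are alike.

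Genes of the response to tissue dissociation, a sign of handling, were measured beside these lists. Of 16 tested, 1 was higher and 3 lower in WT CXCR6+, with the heat shock gene Hspa1b higher (log2 1.90, edgeR adjusted p 0.00868) and the stress factor Atf3 lower (-1.09, adjusted p 3.11e-06). Of the 16, 7 were higher and 2 lower with the length offsets, 6 and 2 with the filter of 10 CPM, and 5 and 2 with only the WT libraries in the fit. Each of these settings also moved the log2 differences of genes as a whole upward, as given above. Of 12 T cell markers, 1 was higher and 6 lower (5 and 2 with the length offsets, 4 and 5 with the filter of 10 CPM), the receptor subunit gene Cd3g among the lower (log2 -1.01, edgeR adjusted p 1.37e-05). Of 17 tested myeloid and microglial markers, 2 were higher and 2 lower (0 and 2 with the filter of 10 CPM). Of the other marker lists, 0 of 3 tested B cell genes were higher and 1 lower, and 1 of 6 neural genes was higher and 2 lower. Of 6 erythroid genes 0 were called by edgeR (1 at an unadjusted p, 0 by DESeq2), and of 1 endothelial gene 0 (1 at an unadjusted p, 1 by DESeq2). Summed neural markers (13 genes) reached 251.6 CPM in DKO CXCR6+, 70.5 to 83.2 CPM in WT CXCR6+, 237.8 CPM in DKO SLAMF6+ and 132.2 to 156.1 CPM in WT SLAMF6+. Of the 13, 9, 1, 5 and 1 were at 0 in all libraries of the group, in the same order of groups. The myelin genes Cnp (190.2 CPM) and Mbp (59.2 CPM) made up nearly all of the DKO CXCR6+ sum, and Snap25 and Slc1a2 were at 0 in both DKO libraries. In bulk samples, fewer cells of a type and less RNA per cell cannot be told apart. The part of handling or of other cells in the members' levels was not tested.

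The genes whose profile over the 12 libraries was most like that of each RNA were found among 5459 genes of at least 20 CPM, by the root mean square difference (RMS) of log2 CPM after each profile was centred on its mean. For Malat1 they were Mark3, a polarity kinase gene (RMS 0.19), the transcription factor gene Deaf1 (0.20), mt-Atp6, which encodes an ATP synthase subunit in mitochondrial DNA (0.23), the pseudogene Gm10222 (0.24) and mt-Nd6, a complex I subunit (0.24), with a median of 1.17 over all candidates. Thus 2 of the 5 were mitochondrially encoded. mt-Atp6 averaged 6650 CPM in DKO CXCR6+, 10810 CPM in WT CXCR6+, 8150 CPM in DKO SLAMF6+ and 3015 CPM in WT SLAMF6+, the order of groups seen for Malat1.

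Neat1 was nearest to the ion exchanger gene Slc9a8 (RMS 0.15), Strn4 (0.16), Son (0.16), Sugp2 (0.16) and Pnisr (0.17), with a median of 0.84 over all candidates. None of its 5 was mitochondrially encoded, and Son and Pnisr belong to the speckle and retained-intron lists above. Kcnq1ot1 was nearest to the ubiquitin ligase gene Ube3a (0.24), Smchd1, which encodes a silencing protein of the inactive X chromosome and of imprinted clusters (0.26), Prrc2c (0.27), Cdk16 (0.28) and the centrosome gene Pcnt (0.28), but its own counts were few. The RMS was 0.46 between Malat1 and Neat1, 0.53 between Malat1 and Kcnq1ot1 and 0.41 between Neat1 and Kcnq1ot1. The 5 genes named for each RNA were picked for the smallest RMS, so the members cannot be ranked against them. Of the candidates, 2.2% were nearer to Malat1 than Neat1 was, and 3.61% nearer than Kcnq1ot1 was. For Neat1, 11.9% were nearer than Malat1 and 8.76% nearer than Kcnq1ot1. For Kcnq1ot1, 12.9% were nearer than Malat1 and 3.96% nearer than Neat1. All profiles share the division of the WT subsets, so likeness among many genes is built on the same 10 libraries.

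**Figure D5:**
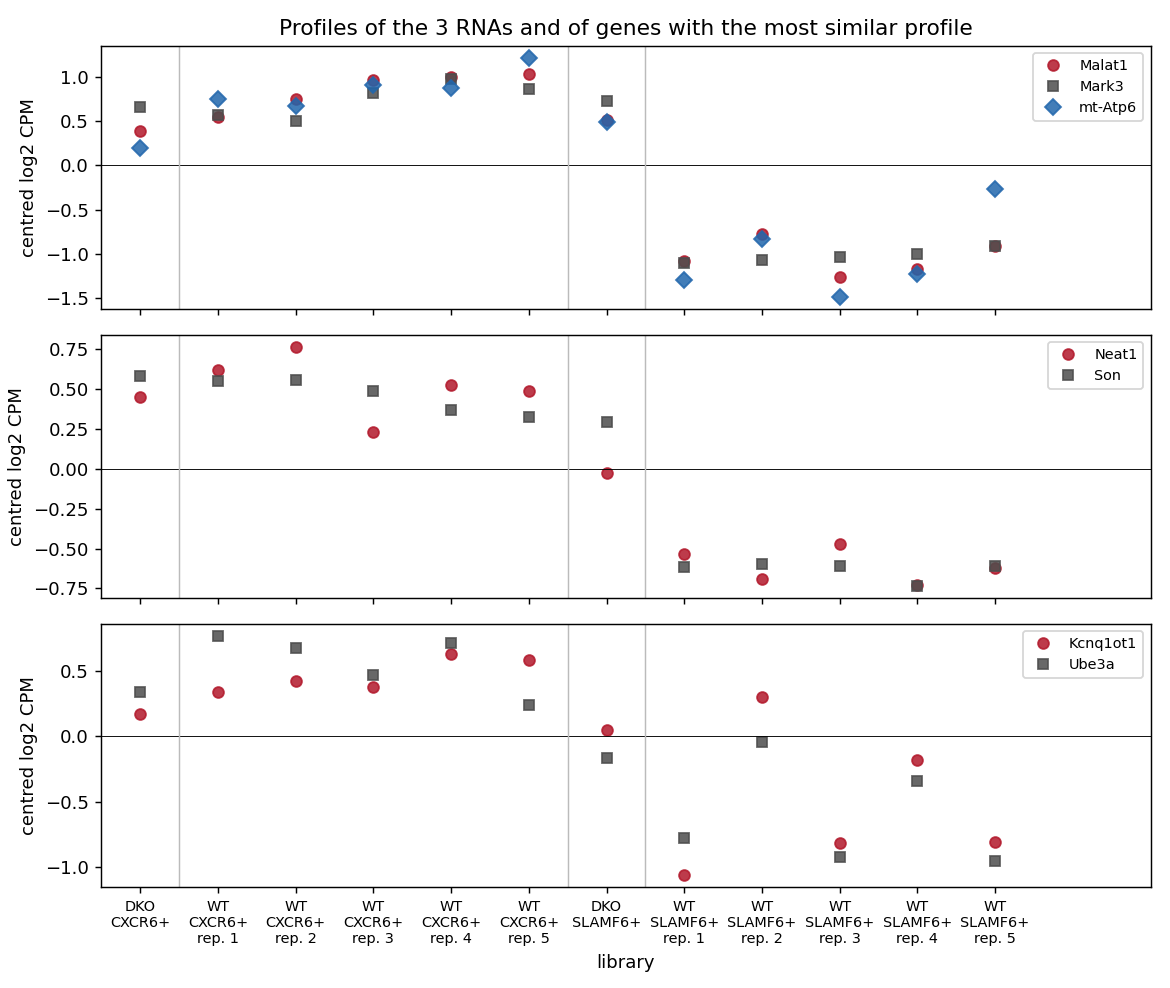
Centred log2 CPM (value minus the gene's mean over 12 libraries) of Malat1 with Mark3 and mt-Atp6, top, Neat1 with Son, middle, and Kcnq1ot1 with Ube3a, bottom, by library from DKO CXCR6+ on the left to WT SLAMF6+ replicate 5 on the right. The genes of a panel follow the same division of WT libraries; mt-Atp6 departs from Malat1 most in WT SLAMF6+ replicate 5, and Kcnq1ot1 in WT SLAMF6+ replicate 2 lies just below the WT CXCR6+ values and above the other WT SLAMF6+ ones.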

How the data were processed

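The authors deposited a table of expected counts per gene symbol, all whole numbers. Per the submitters' processing notes, the tools were STAR 2.7.7a and RSEM 1.3.3 and the build mm10. Per the labels' protocols the cDNA was made with a modified SMART-Seq2 method and read as pairs of 38 nt; this does not mark strand. Which annotation was used, and how multiply matching reads were shared out, is not given in the sources used here.

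A GENCODE M21 (GRCm38) gene was found for 41372 of 47359 symbols (87.4%), the source of positions, classes and sequences. Counts entered edgeR 4.0.16 in R 4.3.3: filterByExpr kept 21565 genes, TMM scaling, 1 quasi-likelihood fit of 4 groups without a block (common dispersion 0.396, 8 residual degrees of freedom), contrast WT CXCR6+ minus WT SLAMF6+, Benjamini-Hochberg threshold 0.05. A single DKO library was set against the WT range. RPKM divide CPM by the longest transcript.

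The members and the 18 gene lists were chosen with earlier results of these data known. Of each list up to 4 genes are named, those with the smallest p among genes of at least 5 CPM in a group, marker lists by sums and examples; each member has its 5 nearest profiles. Alternatives replaced scaling and test (DESeq2 1.42.0), filter, genes in the library size, samples, block, and length handling, and left out each WT library. The labels do not state what same-numbered WT libraries share, so no block entered the main test and the block was an alternative.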

Additional observations from a re-analysis of the deposited data

Results flagged for a closer look

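In groups of 5 libraries, 138 sets of values (69 measures in both WT subsets) were searched for a library whose gap to its nearest neighbour took up an unusual part of the range. A total of 5 were found; chance flags about 1 in 20. The part of the range is given after each value. In WT CXCR6+, Maf stood at 12.5 CPM in replicate 2 and at 6.08 to 7.6 CPM in the others (0.763), and Deaf1, near Malat1 in profile, stood at 31.1 CPM in replicate 1, also the lowest library in Malat1, and at 41.8 to 45.9 CPM in the others (0.726). In WT SLAMF6+, Son stood at 52.2 CPM in replicate 4 and at 56.9 to 57.6 CPM in the others (0.872). Sugp2 stood at 25 CPM in replicate 1 and at 20.6 to 21.2 CPM in the others (0.85). Prrc2c, near Kcnq1ot1 in profile, stood at 107.3 CPM in replicate 2, the library highest in Kcnq1ot1, and at 68.2 to 74.9 CPM in the others (0.828).

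Malat1 moved in opposite directions between the genotypes in the 2 subsets. The DKO over WT log2 ratio in CXCR6+ minus that in SLAMF6+ was -2.02, with the DKO CXCR6+ library below all 5 WT CXCR6+ libraries and the DKO SLAMF6+ library above all 5 WT SLAMF6+ libraries. This difference was not tested, since each DKO group is 1 library. The sex-linked, receptor and some myeloid transcripts given above part the DKO libraries from WT as well, and haemoglobin genes part the DKO SLAMF6+ library.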

How the results depend on the processing

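The log2 differences of the 3 RNAs between the WT subsets kept their sign in every alternative run. A filter of 10 CPM in 5 libraries gave 2.16 for Malat1 and 1.41 for Neat1 and left out Kcnq1ot1; it moved the median of shared genes by 0.26 (log2), so both moved with the scaling. That filter called 2463 genes lower, and length offsets called 2341 lower and gave 1.68 for Malat1, 0.62 for Neat1 and 0.48 for Kcnq1ot1. These offsets turned Snhg6 (0.17), Exosc3 (0.19) and Junb (0.12), none then called. Lower calls among speckle proteins were 1 with the strict filter and 1 with the replicate block, and those among retained-intron transcripts were 1 with the filter, 1 with only the WT libraries and 1 with the block; the cause was not tested. Higher calls over the settings ran from 53 to 512 for TEC genes, 30 to 285 for antisense genes and 34 to 134 for lincRNAs. Leaving out each WT library gave 1.84 to 1.97 for Malat1, 1.08 to 1.21 for Neat1 and 0.85 to 1.27 for Kcnq1ot1.

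Same-numbered WT libraries deviated together little, if at all (correlations over 5461 genes -0.046 to 0.101). Such correlations cannot show whether same-numbered libraries came from the same animal, which the labels do not state. With the replicate block the log2 differences were 2.03, 1.26 and 1.21, and 3723 genes were higher and 3280 lower. Kcnq1ot1, at 10 to 36 counts a library, is limited by depth.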
